A study of Mus musculus with 2 samples.

Results

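The cell cycle is driven by a small set of genes that are switched on in turn, and 40 of them were followed here through the germ cells and the somatic cells of the mouse fetal ovary at embryonic day E15.5. The genes were chosen by symbol, and each of the 40 symbols names 1 of the 27998 genes of the deposited matrices. They fall into 6 roles, which are 3 D cyclins, 2 E cyclins, 9 genes of replication licensing, 5 genes of replication, CDK1 with 3 of its cyclins, and 17 genes of mitosis. The 14 licensing and replication genes are called the S members below, and the 21 genes of the last 2 roles are called the G2/M members.

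Single-cell RNA sequencing was performed on 2 libraries, and each group holds 1 library. The KO library came from the pooled ovaries of 2 embryos with a homozygous deletion of the glucocorticoid receptor (GR, encoded by Nr3c1), and the WT library from those of 4 wild-type embryos. The deletion allele was derived from the floxed exon 3 of Nr3c1tm1.1Jda by a β-actin Cre, so that it is present in all cells and not in germ cells alone, and it is lethal at birth in homozygotes. Both libraries carry the Pou5f1-EGFP transgene Tg(Pou5f1-EGFP)2Mnn, which labels germ cells; GFP-positive germ cells and GFP-negative somatic cells were sorted and mixed at 60 to 40. The proportions of germ and somatic cells were therefore set by hand, and genotype cannot be told apart from embryo pool, sort or capture.

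D cyclins bring growth signals to the cycle in G1, and E cyclins take the cell into S phase. The licensing genes are the MCM helicase and its loaders Cdc6 and Cdt1, which prepare the replication origins. Gins2, which acts with the helicase after licensing, is counted with them here. CDK1 with cyclins A and B drives mitosis, which ends when Cdc20 and Ube2c direct the destruction of the cyclins. In the fetal ovary germ cells leave mitotic division, pass through a last S phase under Stra8, the retinoic acid responsive gate of meiosis, and enter the prophase of meiosis I. Pregranulosa cells, which will surround the oocytes, are known to leave the cycle under the CDK inhibitor p27 (Cdkn1b), while the mesenchyme and the surface epithelium keep dividing.

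Genes of the same role also share letters in their promoters, which are shown for 5 members that recur in the results: 3 G2/M members and 2 S members. The sequences are the 200 bases before the transcript start in RefSeq (GRCm38.p6), 5′ to 3′ on the strand of the gene, and capitals mark each match, on either strand, to TTTGAA (the core of the cell cycle genes homology region, CHR), to the CCAAT box, or to an E2F string, which is TTCCCGC or the variant TTGGCGC or the variant TTCGCGC or the variant TTGCCGC. Overlapping matches run together. Ube2c (chr2:164769729-164769928, + strand), Cdc20 (chr4:118437344-118437543, - strand) and Top2a (chr11:99024190-99024389, - strand) hold the CHR core, whereas Hells (chr19:38930790-38930989, + strand) and Rrm1 (chr7:102441495-102441694, + strand) hold an E2F string.
Ube2c: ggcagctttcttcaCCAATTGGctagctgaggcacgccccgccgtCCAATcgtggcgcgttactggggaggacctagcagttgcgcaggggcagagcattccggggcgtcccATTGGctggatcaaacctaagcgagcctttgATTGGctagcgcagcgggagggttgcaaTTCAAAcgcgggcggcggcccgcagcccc
Cdc20: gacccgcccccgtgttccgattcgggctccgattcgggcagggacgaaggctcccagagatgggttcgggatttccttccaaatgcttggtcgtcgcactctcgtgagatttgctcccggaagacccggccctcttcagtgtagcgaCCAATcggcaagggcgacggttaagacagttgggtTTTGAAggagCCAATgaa
Top2a: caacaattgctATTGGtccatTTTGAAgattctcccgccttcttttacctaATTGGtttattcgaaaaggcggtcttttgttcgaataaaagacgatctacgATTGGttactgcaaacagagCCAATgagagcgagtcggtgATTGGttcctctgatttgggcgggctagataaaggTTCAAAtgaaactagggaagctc
Hells: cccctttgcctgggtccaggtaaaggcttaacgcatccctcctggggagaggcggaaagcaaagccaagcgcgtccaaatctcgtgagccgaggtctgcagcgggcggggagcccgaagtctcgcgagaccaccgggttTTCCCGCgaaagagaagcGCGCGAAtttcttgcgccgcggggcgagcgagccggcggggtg
Rrm1: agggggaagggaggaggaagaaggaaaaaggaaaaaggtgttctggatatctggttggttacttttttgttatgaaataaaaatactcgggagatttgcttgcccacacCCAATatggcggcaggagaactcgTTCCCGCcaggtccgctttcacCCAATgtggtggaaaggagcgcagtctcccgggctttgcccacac
In Ube2c the CHR core lies 29 bases before the start, in Cdc20 18 bases and in Top2a 23 bases, with a second match in Top2a 179 bases before it. The E2F strings lie 61 and 43 bases before the start in Hells and 67 bases before it in Rrm1.

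Over the window of 300 bases (250 before the start and 50 after it), 32 of the 40 members had a RefSeq promoter. The CHR core was found in 13 of 18 G2/M members and in 1 of 12 S members, against 18.1% of the promoters of all 27025 genes. An E2F string was found in 9 of 12 S members and in 3 of 18 G2/M members, against 9.69% of all promoters. CCAAT, which is present in 37.9% of all promoters, was found in 16 of 18 G2/M members and 8 of 12 S members. A match is a description of the letters and not of a bound site. Matches shared bases with another match in 6 of the 32 members: an E2F string with a CCAAT box in Ccnb1 and Mcm7, an E2F string with another in Mcm3, Mcm5, Mcm6 and Mcm7, and a CCAAT box with another in Ube2c.

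The matrices held 17829 (KO) and 11430 (WT) barcodes, of which 15502 and 9045 passed the limits of the study, with a median of 10194 and 15685 UMIs per cell. Cells were named from markers into 8 classes, with the suffix -like, and 789 and 247 cells stayed unnamed. Nr3c1 stood at 11.6 and 72.2 CPM in the KO and WT germ-like cells and was lower in KO in each of the 4 large classes; the counts name the gene and not its exons. Libraries shared 75 barcodes, and Scrublet marked 6.60% and 2.60% of cells as doublets, which were kept. The epithelia-like cells held the granulosa markers at 1838 and 1783 CPM, close to their own markers at 1907 and 2099 CPM. Germ cell transcripts were found in the somatic classes, and free RNA, doublets and mixed cells as their source were not told apart: the median of 8 germ markers stood at 3.75% and 3.14% of its germ-like level in granulosa-like cells, 3.73% and 4.56% in theca-like cells and 4.24% and 2.13% in epithelia-like cells (KO and WT).

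To determine which cells of the E15.5 ovary held cycle transcripts, the members were first compared across the classes. A level is the UMIs of a gene summed over the cells of a class and library, scaled to 1000000 UMIs of that class (CPM), and brackets give exact 95% intervals, which cover counting error only; where 2 values are paired, KO comes first and WT second. Theca-like and epithelia-like cells held mitotic transcripts, granulosa-like cells held few, and germ-like cells held many but of a different make-up. The G2/M members summed to 1721 CPM [1695, 1748] in KO and 1787 CPM [1758, 1817] in WT in theca-like cells and to 1734 CPM [1710.2, 1759] in KO and 1777 CPM [1744, 1811] in WT in epithelia-like cells. In granulosa-like cells they summed to 145 CPM [139, 152] in KO and 134 CPM [128, 142] in WT. In germ-like cells the sum was 2614 CPM [2605, 2623] in KO and 2578 CPM [2568, 2587] in WT. The 14 S members summed to 1694 and 1576 CPM in germ-like, 1094 and 1084 CPM in epithelia-like, 994 and 1047 CPM in theca-like and 404 and 384 CPM in granulosa-like cells. Hells alone made up 1182 and 1053 CPM of the germ-like sum. Over the other 13 S members, a sum added after the values had been seen, germ-like cells stood at 512 and 523 CPM, below epithelia-like cells at 936 and 959 CPM and theca-like cells at 855 and 904 CPM, and granulosa-like cells stood at 330.1 and 325 CPM, so that the order of germ-like cells and dividing soma turned with that gene. Of these 4 classes granulosa-like cells were lowest on each sum in both libraries, and the theca-like and epithelia-like classes lay close together.

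**Figure D1:**
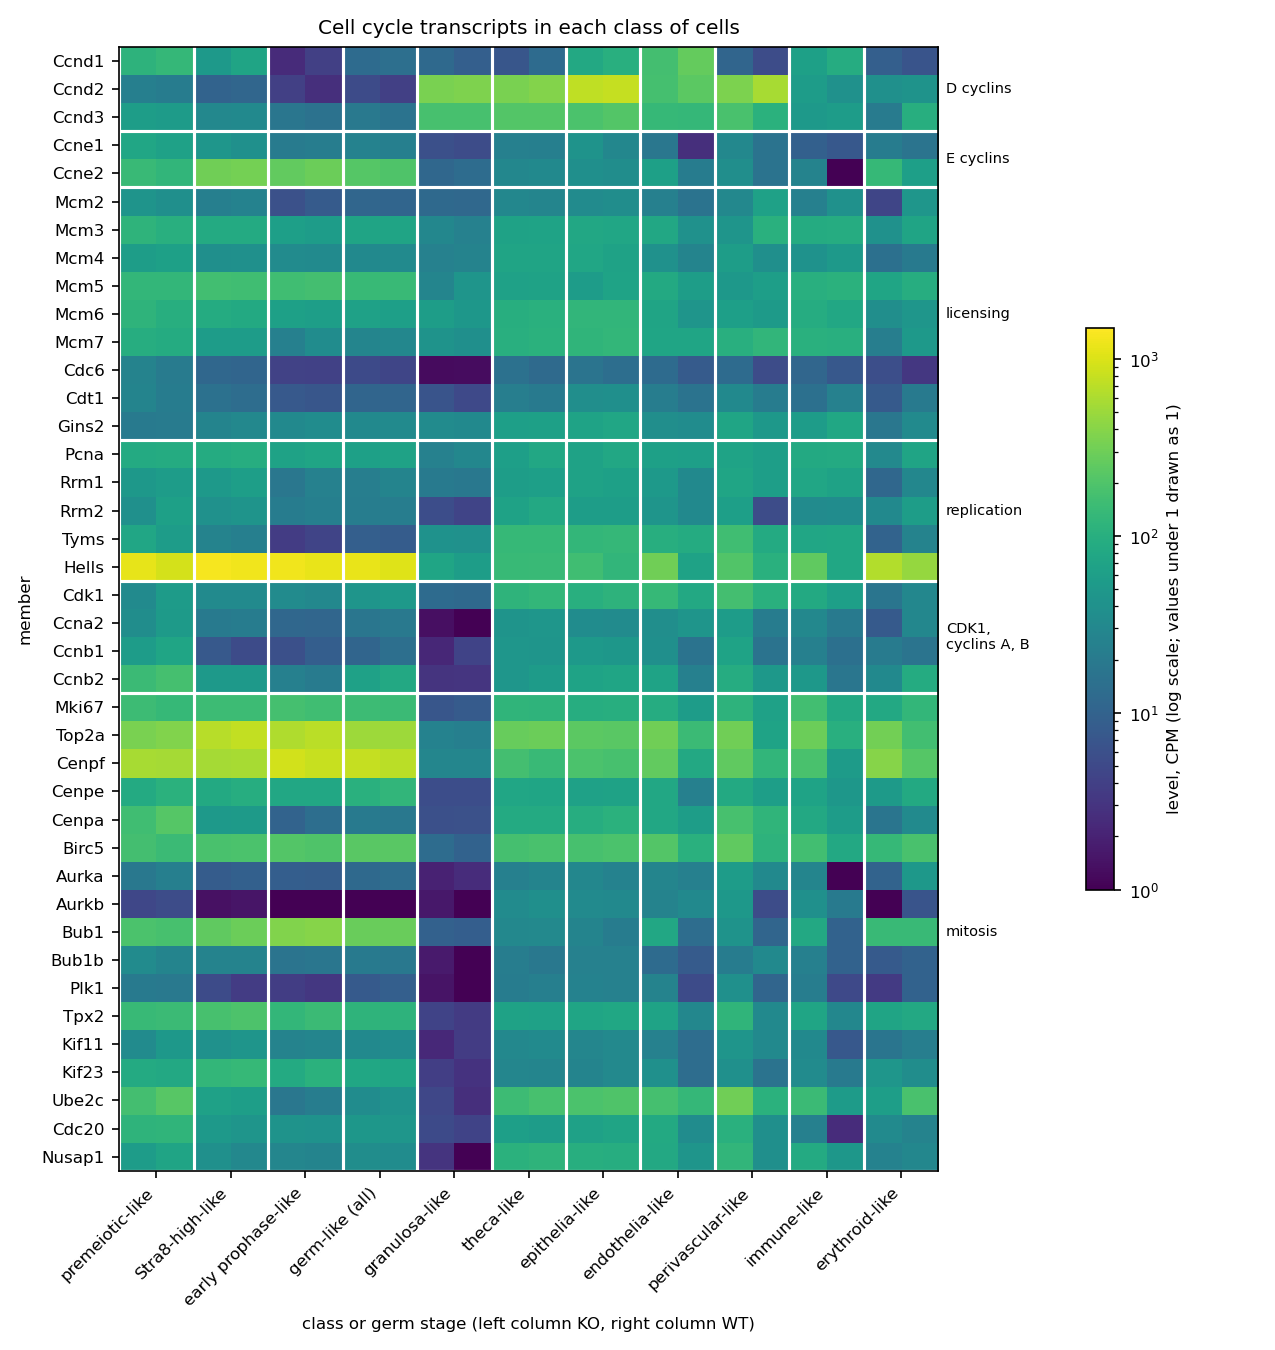
Level of each of the 40 members (y axis, grouped by role) in each class and germ stage (x axis; in each pair of columns KO is left and WT right), as CPM on a log colour scale with values under 1 drawn as 1. The granulosa-like columns are darker than the theca-like and epithelia-like columns for the genes of mitosis, while the germ-like columns are bright for Hells, Top2a, Cenpf and Ccne2.

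D cyclins, the partners of CDK4 and CDK6, were the members that the large somatic classes shared. Ccnd2 stood at 342 CPM [333, 351] in KO and 369 CPM [358, 381] in WT in granulosa-like cells. It was at 346 and 385 CPM in theca-like and 739 and 785 CPM in epithelia-like cells, but at 5.27 and 3.96 CPM in germ-like cells. Granulosa-like cells therefore held as much Ccnd2 as theca-like cells, although they held few mitotic transcripts. Ccnd3 was also level across the large somatic classes, at 176 and 179 CPM in granulosa-like, 214 and 209.9 CPM in theca-like and 187 and 212 CPM in epithelia-like cells, against 19 and 16 CPM in germ-like cells. It was not level over the smaller classes. Ccnd1 was the exception. It was highest in endothelia-like cells, at 168 and 269.7 CPM, then in epithelia-like cells, at 82.8 and 99.8 CPM. In the granulosa-like, theca-like and germ-like classes it lay between 7.17 and 14.4 CPM.

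Both E cyclins, which activate CDK2 at the entry into S phase, were the lowest of the 4 large classes in granulosa-like cells, but they differed in the germ line. Ccne2 stood at 220.1 CPM [217, 223] in KO and 201 CPM [199, 204] in WT in germ-like cells. It was at 37.8 and 36.1 CPM in epithelia-like, 29.2 and 32.03 CPM in theca-like and 11.6 and 13.4 CPM in granulosa-like cells. Of these classes Ccne1 was highest in epithelia-like cells, at 43.4 and 29.7 CPM. It stood at 25.4 and 23.6 CPM in germ-like, 24.1 and 23.2 CPM in theca-like and 6.01 and 5.497 CPM in granulosa-like cells. Ccne2 was thus a germ cell transcript by level and Ccne1 was not.

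Among the licensing genes, the MCM subunits, which form the replicative helicase, were split between germ and soma. Mcm5 was higher in germ-like cells, at 139 and 142 CPM, than in theca-like cells, at 65.4 and 68.2 CPM, or granulosa-like cells, at 27.7 and 45.3 CPM. Mcm7 was lowest in germ-like cells, with 121 and 127 CPM in epithelia-like and 99.5 and 107 CPM in theca-like cells, 43.2 and 38.3 CPM in granulosa-like cells and 28.2 and 29.7 CPM in germ-like cells. The subunits of 1 complex were therefore not in the same order across the classes. Mcm6 was at 124 and 124 CPM in epithelia-like, 98.4 and 103 CPM in theca-like, 64.8 and 61.2 CPM in germ-like and 58.3 and 48.1 CPM in granulosa-like cells. Mcm3 was at 80.9 and 76.4, 68.4 and 70.3 CPM, 71.3 and 72.6 CPM, and 29.6 and 24.8 CPM in the same order of classes, so that granulosa-like cells were again lowest. Over both libraries the other 5 licensing genes lay between 4.66 and 32.9 CPM in germ-like, between 12.4 and 71.1 CPM in theca-like, between 14.1 and 76.4 CPM in epithelia-like and between 1.23 and 33.7 CPM in granulosa-like cells.

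Of the replication genes, Hells, a chromatin remodeller of the SNF2 family that is needed for DNA methylation, had the highest level of the 5 in germ-like cells relative to the soma. It stood at 1182 CPM [1176, 1188] in KO and 1053 CPM [1047, 1059] in WT in germ-like cells. In the soma it was at 157 and 125 CPM in epithelia-like, 139 and 143 CPM in theca-like and 73.5 and 58.9 CPM in granulosa-like cells. Tyms, the thymidylate synthase, went the other way, with 133 and 134 CPM in theca-like and 128 and 131 CPM in epithelia-like cells against 9.07 and 8.36 CPM in germ-like cells. It was also the only replication gene that was higher in granulosa-like than in germ-like cells in both libraries, at 41.8 and 39.9 CPM. Rrm1, the large subunit of ribonucleotide reductase, was at 66.8 and 63.7 CPM in epithelia-like, 58.6 and 62.1 CPM in theca-like, 22.6 and 27.1 CPM in germ-like and 20.3 and 18.5 CPM in granulosa-like cells. Pcna, the sliding clamp, lay between 62.2 and 80.01 CPM in the germ-like, theca-like and epithelia-like classes and at 24.6 and 29.7 CPM in granulosa-like cells. Rrm2, the partner of Rrm1, was at 68.4 and 83.03 CPM in theca-like, 58.3 and 58.2 CPM in epithelia-like, 22.3 and 22.1 CPM in germ-like and 5.69 and 4.49 CPM in granulosa-like cells.

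CDK1 and its cyclins separated the classes more sharply. Cdk1, the mitotic kinase, stood at 115 CPM [108, 122] in KO and 126 CPM [119, 134] in WT in theca-like cells. It was at 102 and 112 CPM in epithelia-like, 44.8 and 50.2 CPM in germ-like and 12.9 and 12.2 CPM in granulosa-like cells. Ccna2, cyclin A2, was at 43.8 and 47.2 CPM in theca-like and 34.7 and 33.8 CPM in epithelia-like cells, and at 1.36 and 0.641 CPM, from 21 and 7 UMIs, in granulosa-like cells. Germ-like cells held less of it than the dividing soma, at 17.5 and 18.97 CPM. The B cyclins differed from each other: Ccnb1 was at 10.95 and 14.6 CPM in germ-like and 46.7 and 45.8 CPM in theca-like cells, whereas Ccnb2 was at 66.3 and 82.9 CPM in germ-like and 46.8 and 55.02 CPM in theca-like cells. In epithelia-like cells Ccnb1 and Ccnb2 stood at 50.8 and 48.4 CPM and at 68.9 and 74.4 CPM. Granulosa-like cells held both at low levels, 2.26 and 4.31 CPM of Ccnb1 and 3.04 and 3.12 CPM of Ccnb2.

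The G2/M members were divided into 2 sets, those higher and those lower in germ-like than in theca-like cells. No limit was put on the size of the difference, and this split is a description made from these values. In both libraries 10 of the 21 G2/M members were higher in germ-like than in theca-like cells (Ccnb2, Mki67, Top2a, Cenpf, Cenpe, Birc5, Bub1, Tpx2, Kif11 and Kif23), and 10 were lower (Cdk1, Ccna2, Ccnb1, Cenpa, Aurka, Aurkb, Plk1, Ube2c, Cdc20 and Nusap1). Bub1b was on different sides in the 2 libraries. Kif11 was in the higher set at only 32.2 and 35.1 CPM against 30.4 and 33.2 CPM in theca-like cells. The share of all genes on either side was not computed. Cenpf, a kinetochore protein, was at 785 and 712 CPM in germ-like cells against 167 and 143 CPM in theca-like and 189 and 179.9 CPM in epithelia-like cells. Top2a, the topoisomerase that untangles chromosomes, was at 517 and 516 CPM against 272 and 289.9 CPM in theca-like and 234 and 229 CPM in epithelia-like cells. Bub1, a kinase of the spindle checkpoint, was at 284 and 279 CPM against 30.1 and 31.3 CPM in theca-like and 27.2 and 21.5 CPM in epithelia-like cells. These 3 genes were also high in germ-like cells of the later stages (described with the germ stages). Birc5 (survivin) was at 233 and 229.7 CPM in germ-like, 173 and 185 CPM in theca-like and 180.4 and 189 CPM in epithelia-like cells. In the lower set, Ube2c, the ubiquitin-conjugating enzyme of the anaphase-promoting complex, was at 35.1 and 41.6 CPM in germ-like against 149.5 and 179 CPM in theca-like cells, and Aurkb, the kinase of the chromosomal passenger complex, was at 0.591 and 0.689 CPM against 33.6 and 38.4 CPM. The CHR core was found in 6 of the 8 lower and 6 of the 9 higher members that had a promoter, at like shares in the 2 sets. Over both libraries the other 13 genes of mitosis lay between 0.591 and 149.5 CPM in germ-like, between 18.6 and 179 CPM in theca-like, between 24.7 and 202 CPM in epithelia-like and between 0.825 and 8.15 CPM in granulosa-like cells.

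The 4 smaller classes are given by their range only. Endothelia-like cells (136 and 30 cells), perivascular-like cells (53 and 15) and immune-like cells (50 and 29) held G2/M members at 1963 and 998 CPM, 2525 and 1099 CPM, and 1733 and 749 CPM. All 3 sums were higher in KO. Germ markers stood beside them at 23.05% and 2.603%, at 5.67% and 4.97%, and at 13.1% and 1.53% of the germ-like level, and Scrublet marked 20.6% of the KO endothelia-like cells; their part in the difference was not tested. Erythroid-like cells (52 and 13) held the germ markers at 52.5% and 45.02% of the germ-like level, beside 1501 and 1582 CPM of G2/M members, which are not read as their own.

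Next, to ask whether pregranulosa cells had left the cycle, theca-like and granulosa-like cells were compared within each library. The classes were built without the members and without the other S and G2/M genes, and a gene was counted as past the limit with at least 100 UMIs and a log2 CPM ratio of at least 1 in size. All 40 members reached the UMI minimum. Higher in theca-like cells were 34 of 40 members in KO and 36 of 40 in WT, against 10.6% and 10.1% of all genes tested; lower were 0 and 0, against 12.2% and 12%. The median log2 ratio of the members was 3.03 in KO and 3.22 in WT, where that of all genes tested was -0.04 and -0.07. These shares, over 10692 and 10122 genes tested, carry no error across animals, since each library is 1 pool.

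The difference was ordered by role. Of the G2/M members, 21 of 21 were past the limit in both libraries, with medians of 3.74 and 3.82. Nusap1, a spindle protein, was at 2.97 and 0.825 CPM in granulosa-like and 105 and 117 CPM in theca-like cells, a log2 ratio of 5.15 [4.72, 5.61] in KO and 7.15 [6.22, 8.28] in WT. Ccna2 followed with 5.01 [4.38, 5.72] and 6.2 [5.15, 7.53]. Ube2c, at 4.78 and 2.66 CPM in granulosa-like cells, gave 4.97 [4.63, 5.32] and 6.07 [5.54, 6.65]. These 3 genes had the largest ratios in both libraries, and each was at less than 5 CPM in the granulosa-like class. The smallest ratio among the G2/M members was that of Bub1, 1.66 [1.37, 1.95] and 1.83 [1.48, 2.19]. Both E cyclins were past the limit, with 2.00 and 2.08 for Ccne1 and 1.33 and 1.26 for Ccne2.

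The S members differed by less. In KO 11 of 14 and in WT 13 of 14 were past the limit, with medians of 1.31 and 1.46. Rrm2, the small subunit of ribonucleotide reductase, and Cdc6 had the largest ratios, 3.59 [3.26, 3.92] and 4.21 [3.79, 4.66] for Rrm2 and 3.66 [2.96, 4.43] and 3.28 [2.46, 4.2] for Cdc6. Below the limit were Mcm6, Gins2 and Hells in KO (0.76, 0.88 and 0.92) and Mcm5 in WT (0.59). The D cyclins stood apart from all other roles: 0 of 3 were past the limit, with 0.02 [-0.04, 0.08] and 0.06 [-0.01, 0.13] for Ccnd2 and 0.28 [0.19, 0.36] and 0.23 [0.13, 0.32] for Ccnd3. Ccnd1 took opposite signs in the 2 libraries, -0.78 [-1.19, -0.37] in KO and 0.53 [0.12, 0.94] in WT.

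**Figure D2:**
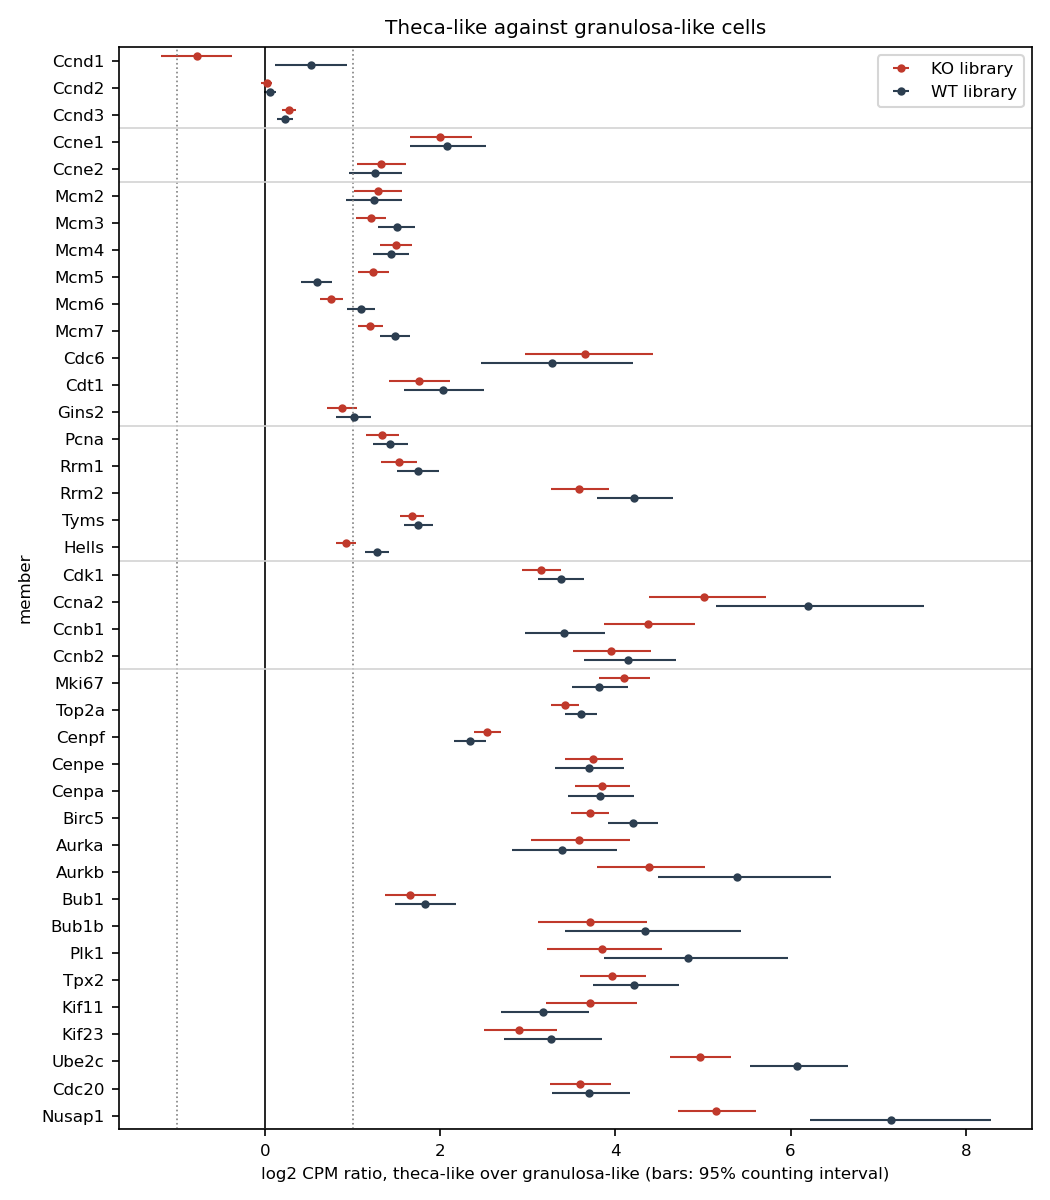
Log2 CPM ratio of theca-like over granulosa-like cells (x axis) for each member (y axis, grouped by role), KO and WT library, with exact 95% counting intervals as bars and the limit of 1 in either direction as dotted lines. The D cyclins sit between -0.78 and 0.53 and the G2/M members between 1.66 and 7.15.

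Other genes of the cycle, listed apart from the members, had the same order. Over all genes tested 10.6% were higher and 12.2% lower in KO, and 10.1% and 12% in WT. Of other G2/M genes, 26 of 33 tested in KO and 25 of 33 in WT were higher in theca-like cells and 0 lower, with medians of 2.32 and 2.62; Fam64a (7.5 and 6.95), Psrc1 (4.57 and 5.9) and Cdca3 (4.28 and 4.92) had the largest ratios in both. Of other S genes, 20 of 30 and 19 of 28 were higher and 0 lower, with medians of 1.36 and 1.47, among them Clspn (3.08 and 3.45) and Rad51ap1 (3.04 and 3.04). CDK inhibitors, which were not left out of the clustering, went the other way, with 2 of 5 tested lower in KO, 3 of 4 in WT and 0 higher. Cdkn1c (p57) stood at 2662 and 2704 CPM in granulosa-like and 442 and 544 CPM in theca-like cells, and Cdkn1b (p27) at 282 and 274 CPM and 46.1 and 54.5 CPM; the log2 ratios were -2.59 and -2.31 for Cdkn1c and -2.61 and -2.33 for Cdkn1b. Cdkn1a (p21) was past the limit in WT only, at -0.81 and -1.34. The regulators of G1 were mostly alike, with 2 of 13 higher in KO (Tfdp1, 1.16, and E2f1, 1.04), 1 of 12 in WT (E2f1, 1.07) and 0 lower.

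For several G2/M members the level in granulosa-like cells lay near that of the germ markers there. Granulosa-like cells held Cenpf at 3.67% and 3.98% of its germ-like level, Bub1 at 3.36% and 3.15%, Tpx2 at 3.75% and 3.17% and Top2a at 4.91% and 4.61%, beside a median of 3.75% and 3.14% for the 8 germ markers; the highest of the 8 stood at 309.9% and 819% of its germ-like level, and their sum at 3.39% and 3.19%. Other members stood higher, with Ube2c at 13.6% and 6.38%, Kif11 at 7.23% and 10.5% and Cdk1 at 28.9% and 24.3% of the germ-like level; the part of carry-over was not tested gene by gene. With the carry-over subtracted, 35 of 40 members were past the limit in KO and 36 in WT, but the share of all genes was not computed in that setting. Theca markers summed to 229 and 185 CPM in granulosa-like cells, against 4063 and 4185 CPM in theca-like cells. The 3 sub-clusters of the granulosa-like class were all low: G2/M members summed to 122 and 193 CPM in the Wfdc10-led, 205 and 130 CPM in the Ly6d-led and 113 and 109.6 CPM in the Ramp1-led sub-cluster. No granulosa-like sub-cluster thus reached the 368 and 379 CPM of the theca-like sub-cluster with the lower sum. The Ramp1-led sub-cluster was named from 5 granulosa markers, of which 0 were among its 10 leading genes. Epithelia-like cells also held the granulosa markers, at 1838 and 1783 CPM. Whether dividing cells with granulosa markers lie in that class was not tested.

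In the theca-like and epithelia-like classes the mitotic transcripts were gathered in 1 sub-cluster each, with histone and mitotic genes among its leading genes. The members did not enter the clustering, but histone genes and mitotic genes outside the lists, such as Prc1, were not left out. High sums in these sub-clusters could thus follow from the clustering, so these values are a description. The Nusap1-led theca-like sub-cluster (223 and 117 cells) held G2/M members at 7231 and 7213 CPM, and the Mfap4-led remainder (1296 and 641 cells) at 368 and 379 CPM. The S members differed less between the same sub-clusters, at 1595 and 1803 CPM and at 847 and 851 CPM. Top2a was at 1127 and 1184 CPM in the former and 62.7 and 57.9 CPM in the latter, and Ube2c at 713 and 822 CPM and at 11.1 and 11.7 CPM. Ccnd2 had the opposite order, 163 and 213 CPM in the former and 391 and 429.9 CPM in the latter. In the epithelia-like class the S100a6-led sub-cluster (197 and 78 cells) held G2/M members at 5576 and 5623 CPM and Ccnd2 at 393 and 410.2 CPM, and the Krt19-led sub-cluster (782 and 280 cells) held them at 536 and 509 CPM and Ccnd2 at 846 and 909 CPM. The S100a6-led sub-cluster was not of 1 kind: at Leiden resolution 1.0 and with cycle genes in the clustering, sub-clusters of 114 and of 76 cells with S100a6 and Angptl7 as their first 2 leading genes were named theca-like, apart from Ube2c-led sub-clusters of 162 and of 180 cells that were named epithelia-like. Even outside these sub-clusters, theca-like and epithelia-like cells held more G2/M and S transcripts than granulosa-like cells.

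Shares of cells gave the same order in the soma. A cell was counted when, thinned to 3000 UMIs, it held UMIs of at least 3 different G2/M members. Such cells made up 1.09% [0.666, 1.68] (20 of 1838 cells) in KO and 1.15% [0.553, 2.104] (10 of 870 cells) in WT of granulosa-like cells. In theca-like cells the share was 20.5% [18.5, 22.7] (312 of 1519 cells) in KO and 22.6% [19.6, 25.7] (171 of 758 cells) in WT, and in epithelia-like cells 25.4% [22.7, 28.3] (249 of 979 cells) in KO and 24.3% [19.9, 29.1] (87 of 358 cells) in WT. The theca-like and epithelia-like intervals lay above the granulosa-like intervals in both libraries. Before thinning, at median depths of 8194 and 12386 UMIs in granulosa-like and 6029 and 9736 UMIs in theca-like cells, the shares were 6.86% and 10.2% in the former and 28.2% and 36.4% in the latter. For the S members the thinned share was 8.98% in KO and 7.701% in WT in granulosa-like, 31.8% in KO and 33.2% in WT in theca-like and 39.7% in KO and 39.7% in WT in epithelia-like cells. Germ markers were present in all of these classes, and their part in the shares was not tested, so that the granulosa-like share is not read as cycling. Without Scrublet doublets the granulosa-like share was 0.502% in KO.

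Most germ-like cells passed this measure at each named stage. With all 21 G2/M members the share was 89.7% in KO and 88.8% in WT over the germ-like class, 90.2% in KO and 89.3% in WT in the premeiotic-like, 92.4% in KO and 92.2% in WT in the Stra8-high-like and 91.1% in KO and 91.6% in WT in the early prophase-like stage. When the measure was limited, after the values had been seen, to the 10 G2/M members that were lower in germ-like than in theca-like cells, the share was 2.598% [2.296, 2.93] (262 of 10086 cells) in KO and 2.78% [2.401, 3.202] (187 of 6725 cells) in WT. With the same 10 genes it was 12.3% in KO and 14.2% in WT in theca-like, 13.8% in KO and 14.5% in WT in epithelia-like and 0.218% in KO and 0% in WT in granulosa-like cells, where 0 of 870 WT cells allows up to 0.423%. Within germ-like cells it was 24.1% [17.1, 32.2] (32 of 133 cells) in KO and 23.2% [12.98, 36.4] (13 of 56 cells) in WT in the premeiotic-like stage. In the Stra8-high-like stage it was 2.99% in KO and 3.84% in WT, and in the early prophase-like stage 1.09% in KO and 0.798% in WT. The 10 genes were chosen as lower in germ-like than in theca-like cells, so the low germ-like share beside the theca-like share depends on that choice. Few germ-like cells are premeiotic-like, so the order of the stages on this measure depends on it too. Neither is read further.

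**Figure D3:**
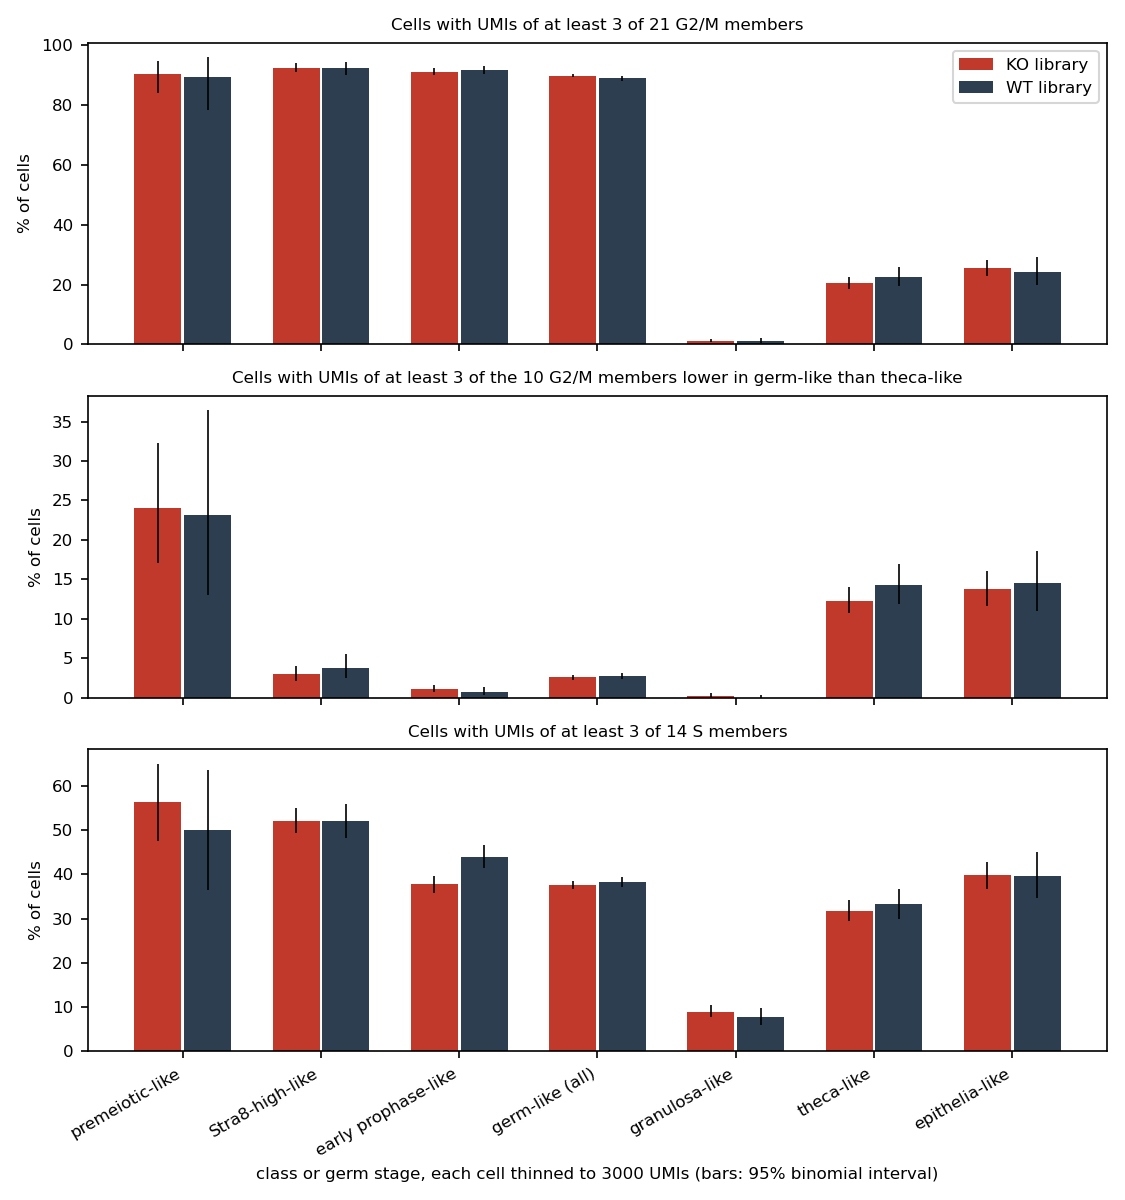
Percent of cells (y axis) of each class and germ stage (x axis) with UMIs of at least 3 different members after thinning to 3000 UMIs per cell, KO and WT library, with exact 95% binomial intervals; the panels use the S members, all G2/M members and the 10 G2/M members that were lower in germ-like cells. With all G2/M members germ-like cells stand at 89.7% and 88.8%, with the 10 genes at 2.598% and 2.78%. The latter values depend on the choice of the 10 genes as lower in germ-like cells.

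The germ-like cells were then divided into stages, to follow the members through the last S phase. Premeiotic-like cells (133 and 56 cells) were 1 sub-cluster led by Phlda2 with Pou5f1 at 87.9 and 107 CPM and Stra8 already at 910.05 and 814 CPM. They were named from 7 of 8 premeiotic markers, but 0 of these were among the 10 leading genes of the sub-cluster, which held 1 Stra8-high marker, Rec8. Stra8-high-like cells (1239 and 651) comprised 3 sub-clusters with Stra8 at 1491 and 1370.3 CPM, and early prophase-like cells (2388 and 1504) comprised 2, with Stra8 at 148 and 130.3 CPM and Prdm9 at 351 and 310.1 CPM. The Stra8-high-like stage had a different make-up in the libraries. Its Tchh-led sub-cluster held 201 and 383 cells, the Hist1h1b-led 524 and 236, and the Stra8-led 514 and 32. The part of this make-up in the stage values was not tested. Most of the 10086 and 6725 germ-like cells could not be named to a stage. Among them were the largest sub-clusters, led by Slc39a10 (2621 and 2324 cells) and by Sohlh1 (2405 and 1641 cells). No sub-cluster was named late prophase-like, so the stages describe only a part of the germ-like cells. Sub-clusters were again built without the members, and since Stra8 is on in the premeiotic-like cells too, they are not cells before its onset.

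Between the premeiotic-like and the Stra8-high-like stage more members were lower than higher. Of 39 members tested in KO, 2 were higher and 11 lower by at least 1 on the log2 scale, against 3.97% and 8.2% of all genes tested. Of 38 tested in WT, 2 were higher and 9 lower, against 7.18% and 6.92%. The medians of the members were -0.43 and -0.54, those of all genes -0.05 and 0.03. The same 2 members, Ccne2 and Top2a, were higher in each library. Neither passed the limit in KO with common limits on cells, with cycle genes in the clustering or at Leiden resolution 1.0. Lower in both libraries were 7 members, namely Tyms, Ccnb1, Ccnb2, Cenpa, Aurka, Ube2c and Cdc20. Of the 14 S members 0 were higher and 2 lower in KO, and 0 higher and 1 lower in WT, and of the 3 D cyclins 2 were lower in KO and 0 in WT.

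Ccnb1, cyclin B1, showed the largest difference. It stood at 56.7 CPM [47.01, 67.8] in KO and 73.1 CPM [59.1, 89.5] in WT in premeiotic-like cells and at 7.77 and 5.34 CPM in Stra8-high-like cells, a log2 ratio of -2.87 [-3.23, -2.5] in KO and -3.77 [-4.23, -3.32] in WT. Cenpa, the centromeric histone, was at 161 and 220.2 CPM and then at 52.1 and 53.8 CPM (-1.63 and -2.03). Ccnb2 was at 147 and 172 CPM and then at 51.4 and 51.8 CPM (-1.52 and -1.73). Ube2c and Cdc20, both of the machinery that ends mitosis, were at 169 and 226 CPM and at 115 and 119 CPM in premeiotic-like cells, and at 64.8 and 59.9 CPM and at 51 and 44.9 CPM in Stra8-high-like cells. Plk1, the polo-like kinase, was past the limit in KO (-1.94) and under the UMI minimum in WT. Ccnb2, Cenpa and Ube2c were lower still in early prophase-like cells, with 24.3 and 20.9 CPM of Ccnb2, 10.2 and 14.2 CPM of Cenpa and 18.1 and 21.9 CPM of Ube2c.

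Of the D and E cyclins, Ccnd1 was at 114 and 129.9 CPM in premeiotic-like, 52.4 and 71.4 CPM in Stra8-high-like and 2.44 and 4.03 CPM in early prophase-like cells. Its ratio of the first step was -1.12 [-1.33, -0.91] in KO and -0.86 [-1.1, -0.62] in WT, past the limit in KO alone. Ccnd2 and Ccnd3 were lower as well, with -1.19 and -0.98 for Ccnd2 and -0.92 and -0.79 for Ccnd3. All 3 D cyclins had negative ratios in both libraries. Ccne2 had the opposite order: it was at 143 and 122 CPM in premeiotic-like, 311 and 329.96 CPM in Stra8-high-like and 258 and 288 CPM in early prophase-like cells, with ratios of the first step of 1.12 [0.96, 1.29] and 1.43 [1.2, 1.67]. Ccne1 was at 76.1 and 65.3 CPM, 46.3 and 39.2 CPM, and 20.95 and 22.1 CPM in the same stages, so that the 2 E cyclins had opposite orders within the germ line.

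The sum of the S members was highest in the Stra8-high-like stage, and without Hells it was highest in the premeiotic-like stage. With all 14 genes it stood at 2015 and 1785 CPM in premeiotic-like, 2081 and 2009 CPM in Stra8-high-like and 1793 and 1723 CPM in early prophase-like cells, of which Hells made up 1133 and 941 CPM, 1362 and 1277 CPM and 1287 and 1187 CPM. Over the other 13 the sums were 882 and 844 CPM, 719 and 732 CPM, and 506 and 536 CPM in the same order. Mcm5 was at 126 and 128 CPM, 163 and 158 CPM, and 161 and 169 CPM in these 3 stages. Mcm2, another subunit of the same helicase, was at 43.5 and 38.1 CPM, 23.5 and 25.6 CPM, and 6.11 and 8.19 CPM, and Tyms at 76.1 and 56.8 CPM, 26.3 and 23.7 CPM, and 3.68 and 4.496 CPM. Mcm5 was thus as high in the early prophase-like as in the Stra8-high-like stage, while Mcm2 and Tyms were lower at each step. Mcm2, Mcm3, Mcm4, Mcm6, Mcm7, Cdc6 and Cdt1 all had negative ratios between the first 2 stages in both libraries, and Pcna had ratios of 0.03 [-0.19, 0.26] and 0.12 [-0.16, 0.40].

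A higher level of S members was found in 1 of the 3 Stra8-high-like sub-clusters. In the sub-cluster led by the linker histone Hist1h1b (524 and 236 cells) the S members summed to 2425 CPM [2391, 2459.6] in KO and 2364 CPM [2324, 2405] in WT, the highest of all germ-like sub-clusters in either library, and without Hells to 985 and 1025 CPM, against 882 and 844 CPM in the premeiotic-like sub-cluster. The other 2 Stra8-high-like sub-clusters, led by Tchh and by Stra8, stood at 1760.2 and 1765 CPM and at 1834 and 1902 CPM. The WT values of the Stra8-led sub-cluster rest on 32 cells. Rrm1 was at 70.7 and 88.9 CPM in the Hist1h1b-led sub-cluster, against 32.7 and 41.2 CPM and 34.9 and 54.5 CPM in the other 2. Mcm5 was at 206 and 202 CPM against 133 and 128 CPM and 129 and 142 CPM, and Pcna at 112 and 126 CPM against 63.2 and 74.8 CPM and 72.7 and 98.1 CPM. Hist1h1b stood at 411 and 355 CPM in the Stra8-high-like stage and at 45.8 and 29.6 CPM in the premeiotic-like stage. The share of cells with UMIs of at least 3 different S members was 67.4% [63.2, 71.4] (353 of 524 cells) in KO and 72.5% [66.3, 78.1] (171 of 236 cells) in WT in the Hist1h1b-led sub-cluster, against 56.4% [47.5, 64.97] (75 of 133 cells) in KO and 50% [36.3, 63.7] (28 of 56 cells) in WT in premeiotic-like cells. Histone genes took part in the clustering, so this sub-cluster is a description and no comparison of stages.

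**Figure D4:**
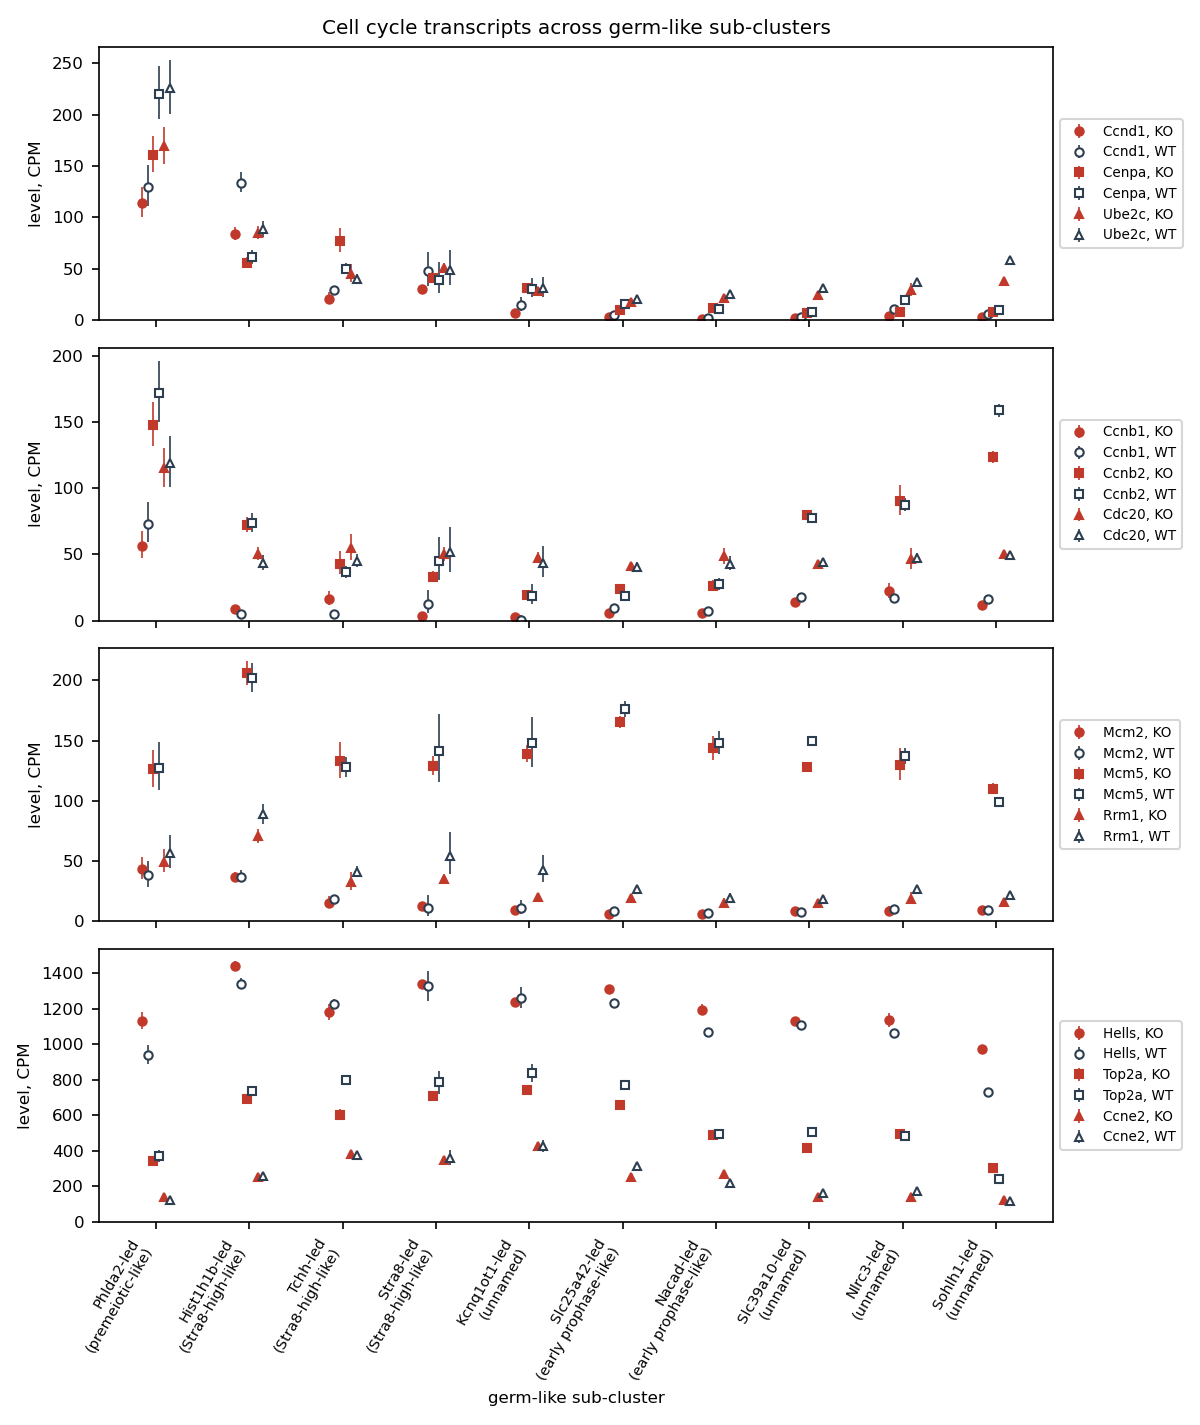
Levels (y axis, CPM from 0, exact 95% Poisson intervals) of 12 members in 10 germ-like sub-clusters (x axis, named by leading gene and stage), KO filled and WT open symbols. Ccnb1, Cenpa and Ube2c are highest in the Phlda2-led premeiotic-like sub-cluster, Rrm1 in the Hist1h1b-led one, and Top2a, Hells and Ccne2 stay high in the early prophase-like sub-clusters.

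Several genes named for mitosis were as high or higher in the later stages. Top2a was at 344 and 373 CPM in premeiotic-like, 689 and 772 CPM in Stra8-high-like and 623 and 699 CPM in early prophase-like cells, and its ratios of the first step were 1.00 [0.90, 1.11] and 1.05 [0.92, 1.19]. Bub1 was at 188 and 177 CPM, 254 and 294 CPM, and 374 and 397 CPM, with ratios of the first step below the limit (0.44 and 0.73). Cenpf was at 569.8 and 565 CPM, 562 and 573 CPM, and 909.7 and 819.8 CPM, and Birc5 at 169 and 148 CPM, 186 and 187 CPM, and 209.6 and 199.95 CPM. The sum of the G2/M members lay in a narrow range over the stages, at 2624 and 2844 CPM, 2630.1 and 2787 CPM, and 2816 and 2842 CPM, while the levels of its members differed. Hells was high in each of the 3 stages.

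CDK1 and Ccnb2 were also high outside the named stages. The Sohlh1-led sub-cluster (2405 and 1641 cells), which carried only 2 late prophase markers and stayed unnamed, held Ccnb2 at 124 and 159 CPM, Cdk1 at 65.9 and 77.01 CPM and the motor Cenpe at 135 and 171 CPM. In the Slc25a42-led early prophase-like sub-cluster the same genes stood at 23.8 and 18.5 CPM, 34.8 and 29.6 CPM and 86.1 and 88.9 CPM. Ccnb1 was at 12.2 and 16.5 CPM in the Sohlh1-led sub-cluster and thus stayed below its premeiotic-like level. Of the B cyclins, Ccnb2 was thus the nearer to its premeiotic-like level there.

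Lists beside the members were mostly level between the first 2 stages. Over all genes tested 3.97% were higher and 8.2% lower in KO, and 7.18% and 6.92% in WT. Of other S genes, 0 were higher and 1 lower of 29 in KO (Ung, -1.24) and 1 higher and 0 lower of 29 in WT (Dtl, 1.2). Of other G2/M genes, 1 was higher (Nuf2, 1.03) and 3 lower of 33 in KO, and 0 higher and 4 lower of 32 in WT; Cks1b (-1.62 and -1.21) and Cks2 (-1.3 and -1.29), which bind CDK1, had the largest differences. Among 5 CDK inhibitors, Cdkn1a was lower (-1.69 and -1.88) and Cdkn2c, from 7 and 6 UMIs in premeiotic-like cells, was higher (1.25 [0.17, 2.59] and 1.15 [-0.01, 2.62]). Of G1 regulators, Cdk4 was lower (-1.11 and -1.31), the only 1 of 8 in KO and of 7 in WT. Ccnb3, the cyclin of meiotic cells, was at 21.7 and 17.9 CPM in premeiotic-like, 67.7 and 47.3 CPM in Stra8-high-like and 115 and 74.7 CPM in early prophase-like cells.

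Finally, the KO and WT libraries were compared within each class, to see which members differed without GR. With 1 library per group no test was possible, and a member was counted as past the limit with at least 100 UMIs over both libraries and a log2 CPM ratio of at least 0.5 in size. In germ-like cells all 40 members reached the minimum and 0 were past the limit, against 2.44% higher and 5.56% lower of 13701 genes tested. Their ratios ran from -0.41 to 0.41, and the median of all genes was -0.06. The largest ratio was that of Ccnd2 (0.41 [0.24, 0.59]), a gene at 5.27 and 3.96 CPM there. The lowest was that of Ccnb1, at 10.95 and 14.6 CPM (-0.41 [-0.52, -0.31]). All 4 genes of the CDK1 role had negative ratios, with -0.17 [-0.22, -0.11] for Cdk1, -0.12 [-0.20, -0.03] for Ccna2 and -0.32 [-0.36, -0.28] for Ccnb2. The share of all genes with negative ratios was not computed, so the shared sign is not read as a result about the role. The S members were split evenly, with 7 positive and 7 negative ratios, from -0.26 [-0.34, -0.19] for Rrm1 to 0.17 [0.16, 0.18] for Hells.

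In granulosa-like cells 29 of 40 members reached the minimum; the 11 others were Cdc6 and 10 G2/M members. Higher in KO was 1 member and lower 1, against 1.59% and 2.23% of 10589 genes tested. Mcm5 (ENSMUSG00000005410) was at 27.7 and 45.3 CPM, a log2 ratio of -0.71 [-0.90, -0.52]. No other MCM gene was past the limit: Mcm6 gave 0.28 [0.12, 0.44], Mcm3 0.25 [0.03, 0.48], Mcm7 0.18 [0.00, 0.35] and Mcm4 -0.06 [-0.28, 0.17]. Mcm2 was at 12.0 and 11.8 CPM. Ube2c (ENSMUSG00000001403) was at 4.78 and 2.66 CPM, from 74 and 29 UMIs, a ratio of 0.85 [0.21, 1.52]; it fell under the UMI minimum when Scrublet doublets were left out, and the count of members past the limit ran from 1 to 9 over the alternatives, with Mcm5 among them each time. The class had a different make-up in the libraries, since the Wfdc10-led sub-cluster held 1043 of 1838 KO cells and the Ly6d-led sub-cluster 612 of 870 WT cells. Within these sub-clusters Mcm5 was at 27.96 and 49.6 CPM and at 32.8 and 50.3 CPM, lower in KO in each, and in the Ramp1-led sub-cluster it was at 14.2 and 14.6 CPM.

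In theca-like cells 40 of 40 members reached the minimum, with 0 higher and 1 lower in KO, against 1.2% and 2% of 9673 genes tested. Ccnd1 (ENSMUSG00000070348) was at 7.17 and 13.1 CPM, from 70 and 104 UMIs, a ratio of -0.86 [-1.32, -0.41]. The 5 replication genes had ratios from -0.36 to -0.006, where the median of all genes was also -0.006. Of these, Pcna (-0.36 [-0.53, -0.20]) and Rrm2 (-0.28 [-0.44, -0.12]) were the farthest from 0. In epithelia-like cells 40 of 40 reached the minimum, with 1 higher and 0 lower, against 2.52% and 1.52% of 9461 genes tested. Ccne1 (ENSMUSG00000002068) was at 43.4 and 29.7 CPM, a ratio of 0.55 [0.30, 0.80]. All 3 D cyclins had negative ratios in this class, with -0.27 [-0.42, -0.12] for Ccnd1, -0.18 [-0.28, -0.08] for Ccnd3 and -0.09 [-0.14, -0.04] for Ccnd2. The median of all genes was 0.02. In neither class was the share of all genes with negative ratios computed, so a shared sign is not read as a result about a role. With common limits on cells, 15 members, all higher in KO, were past the limit in epithelia-like cells and 3 in theca-like cells, and with thinning 0 in theca-like cells. The share of all genes past the limit was not computed in these settings, so these counts are not read as a result about the members. No member was past the limit in more than 1 class with the limits of the study.

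**Figure D5:**
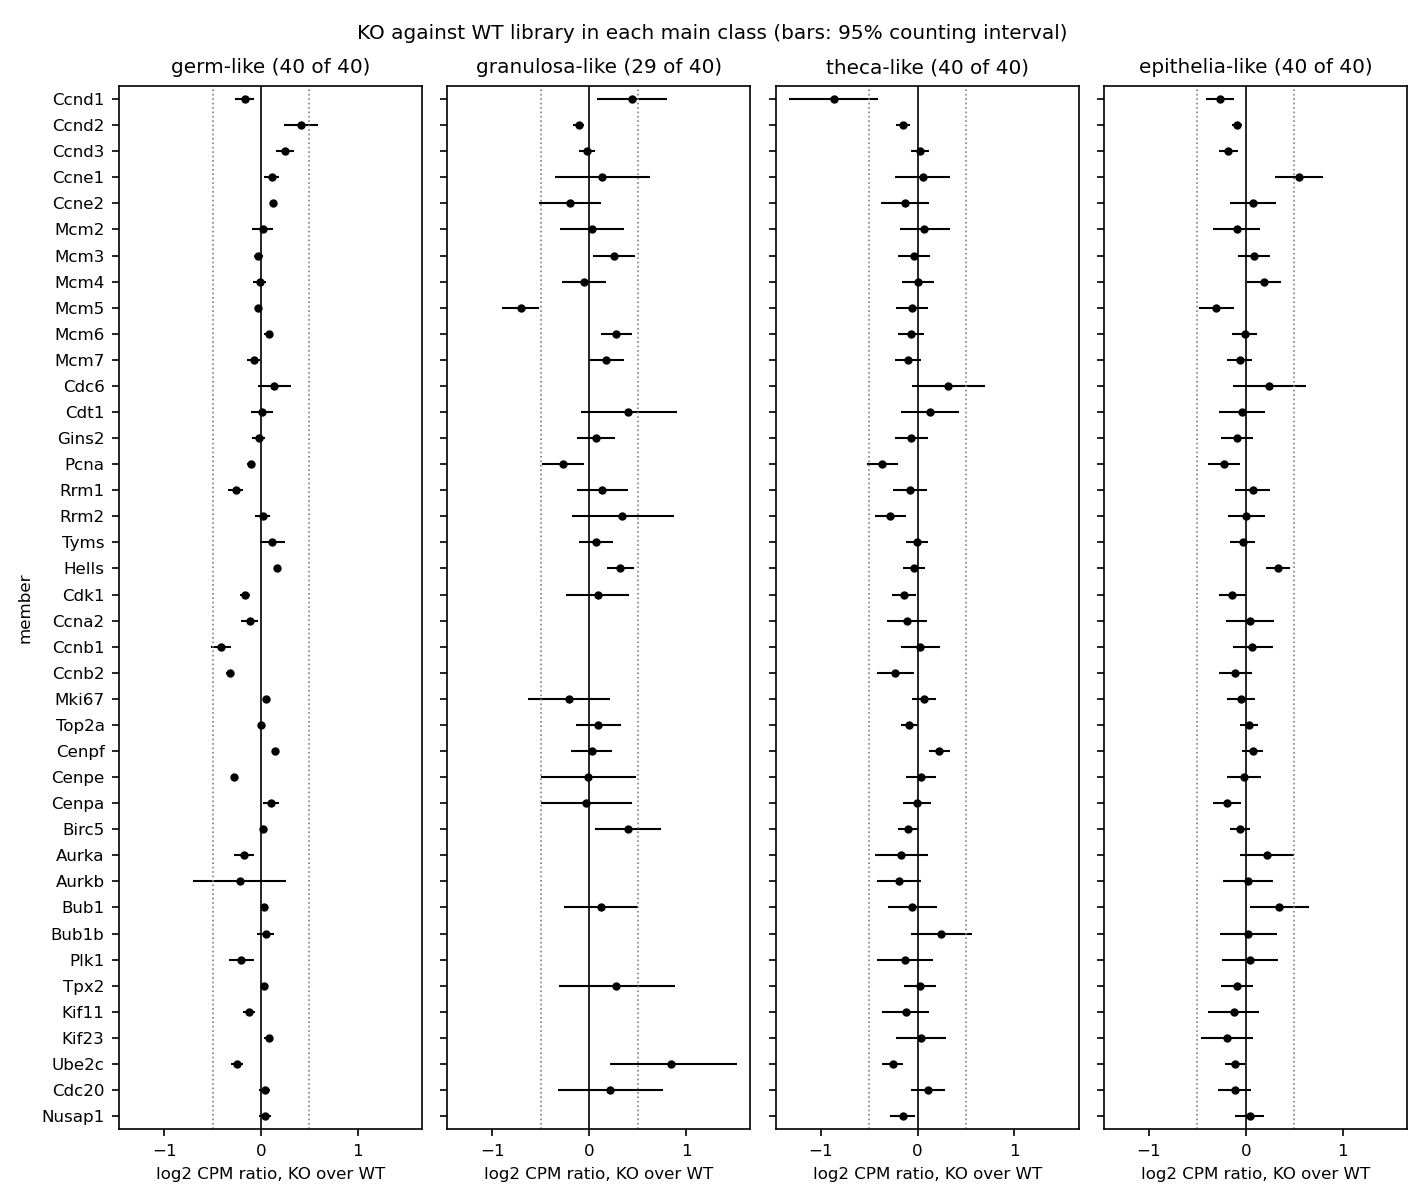
Log2 CPM ratio of KO over WT (x axis) for each member that reached 100 UMIs (y axis, grouped by role) in the 4 large classes, with exact 95% counting intervals as bars and the limit of 0.5 as lines. Past the lines are Ube2c and Mcm5 in granulosa-like, Ccnd1 in theca-like and Ccne1 in epithelia-like cells, and no member in germ-like cells.

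The other lists gave few differences between the libraries, too few to be read as a result about them. Germ-like cells had 0 past the limit of 30 other S, 37 other G2/M, 7 CDK inhibitor, 15 G1 regulator and 2 meiotic cyclin genes. Over all genes 2.44% were higher and 5.56% lower there. In granulosa-like cells (1.59% of all genes higher, 2.23% lower) Cdk6, a partner of the D cyclins, was lower (-1.03 [-1.3, -0.77]), 1 of 12 G1 regulators. Dscc1 was higher (0.60 [0.00, 1.22]), 1 of 25 other S genes. In theca-like cells (1.2% higher, 2% lower) Ect2 was lower (-0.61 [-0.96, -0.27]) and Nek2 higher (0.60 [-0.01, 1.24]), of 36 other G2/M genes. Cdkn1a was higher (0.52 [0.26, 0.78]), 1 of 5 CDK inhibitors. In epithelia-like cells (2.52% higher, 1.52% lower) Clspn was higher (0.61 [0.35, 0.87]), 1 of 30 other S genes. Cdk2 (0.51 [0.04, 0.99]) and Rbl2 (0.50 [0.02, 1.00]) were higher, 2 of 14 G1 regulators. Psrc1 was lower (-0.55 [-0.91, -0.18]), 1 of 35 other G2/M genes.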

How the data were processed

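Ovaries were profiled with the 10x Genomics 3′ v3 chemistry, and 1 KO and 1 WT library were analysed. The matrices as deposited hold raw UMI counts, made by the authors with Cell Ranger (3.0.2 per the file headers) on mm10; Seurat 3.2.3 is named in the submitters' processing notes. Barcodes had to lie within limits taken from the study's methods, which were 1500 to 6500 genes and 5500 to 40000 UMIs in WT, 1200 to 5500 genes and 3000 to 30000 UMIs in KO, and under 10% mitochondrial UMIs in both. The 40 members and the genes of the other S and other G2/M lists did not enter the clustering (scanpy 1.11.5, Leiden resolution 0.5, 2000 variable genes, 30 components, 20 neighbours).

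A cluster was named when at least 3 markers, found in at least 10% of its cells, stood above the other cells (2-fold for classes, 1.5-fold for germ stages) and no other class prevailed among its 10 leading genes; a germ stage could also be named from 75% of its own markers. How the markers were scored was decided with the clusters in view. Members and lists were chosen with earlier results of these data known. Doublets marked by Scrublet (expected rate 8%) were kept, and their removal was an alternative. Cells are not replicates, so UMIs were summed per class and library and no p-value is given; intervals are exact (Poisson, conditional binomial or Clopper-Pearson). The names are rebuilt and can differ from those of the study. Counts are per gene and not per exon, and reads of near-identical genes may be split.

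Levels are given in the text, by rule, for all D and E cyclins and for the 4 members of each other role with most UMIs. Between libraries the members past the limit are named, up to 5 in each direction, and of other lists up to 3 genes of largest ratio. Members named beyond this rule, among them Ube2c, Cdc20, Cenpa, Plk1, Aurkb, Nusap1, Mcm2, Rrm2 and Cenpe, were chosen after their values were seen. The comparison was tested on simulated data with known ratios before use. Alternatives covered the cell limits, the clustering, doublets, mixed cells, thinning, scaling, the UMI minimum and the carry-over of germ cell RNA.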

Additional observations from a re-analysis of the deposited data

Results flagged for a closer look

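For 5 members the log2 ratios of KO over WT pointed opposite ways in 2 classes, with counting intervals on either side of 0. The 2 classes farthest apart are given. The share of all genes that did so was not computed, so the count is not read as a result about the members. Ccnd1 was at 0.44 [0.08, 0.80] in granulosa-like and -0.86 [-1.32, -0.41] in theca-like cells, from levels of 12.3 and 9.07 CPM and of 7.17 and 13.1 CPM (KO and WT). Ube2c was at 0.85 [0.21, 1.52] in granulosa-like and -0.26 [-0.36, -0.15] in theca-like cells. Ccnd2 was at 0.41 [0.24, 0.59] in germ-like cells, where it is low, and -0.15 [-0.22, -0.08] in theca-like cells. Ccnd3 was at 0.25 [0.16, 0.34] in germ-like and -0.18 [-0.28, -0.08] in epithelia-like cells, and Cenpa at 0.10 [0.02, 0.19] in germ-like and -0.19 [-0.34, -0.05] in epithelia-like cells. The difference between the classes was not tested, since each group holds 1 library.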

How the results depend on the processing

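Of 170 values of the counts and shares recomputed under an alternative, 108 kept within the limits set for them and 62 moved. A reversal was not defined for these values, and the cause of the moves was not tested. Of 396 values of single genes, 78 moved and 0 changed sign. These genes were all past the limit in the main setting, so a change of sign was unlikely from the start. Leaving out the barcodes found in both libraries, an alternative added after seeing the data, moved none of the 16 counts and shares. No paired analysis was possible because each group holds 1 library, and for the same reason no replicate could be left out. KO members past the limit against WT in germ-like cells were 1 in place of 0 with common cell limits (Ccnd2), with thinning (Ccnd2) and as a mean per 10000 UMIs (Ccnb1). In granulosa-like cells the count of 2 became 4 with common limits, 8 with cycle genes in the clustering, 1 (Mcm5) at Leiden resolution 1.0, without cells that hold markers of another class, and with thinning, 9 at a minimum of 20 UMIs, and 8 with carry-over subtracted; Mcm5 was past the limit in all of these and Ube2c, where tested, lay between 0.62 and 1.5. In theca-like cells the count of 1 became 3 with common limits (Ccnd1, Cdc6 and Bub1b), 3 without mixed cells (Ccna2, Aurkb and Ube2c) and 0 with thinning. Thinning also lowers the UMIs set against the minimum, so that 0 need not mean a smaller ratio. In epithelia-like cells the count of 1 became 15, all higher in KO, with common limits. The share of all genes past the limit was not computed under any alternative, so no such count is read as a result about the members.

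For Stra8-high-like against premeiotic-like cells, the 13 members in KO became 6 with common limits, 4 with cycle genes in the clustering and 8 at Leiden resolution 1.0, all of them lower, so that Ccne2 and Top2a were no longer past the limit; the 11 in WT became 5 with common limits, 6 with thinning (21 tested) and 19 in the top 25% of cells by Stra8. For theca-like against granulosa-like cells the 36 in WT became 22 without mixed cells and 20 with thinning (26 tested in each), with 0 lower.

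Shares of cells with G2/M members moved with the number of genes asked for. With at least 2 genes they were, in KO and WT, 97.7% and 97.6% in germ-like, 5.06% and 3.91% in granulosa-like, 28.8% and 30.3% in theca-like and 32.2% and 31.01% in epithelia-like cells. With at least 5 they were 49.5% and 49.8%, 0.326% and 0.2299%, 15.9% and 17.02%, and 18.8% and 19.3%. Without thinning they were 99.5% and 99.9%, 6.86% and 10.2%, 28.2% and 36.4%, and 41.6% and 46.6%. With the 10 G2/M members lower in germ-like cells, added after seeing the data, they were 2.598% and 2.78%, 0.218% and 0%, 12.3% and 14.2%, and 13.8% and 14.5%. The germ-like values depend on that choice of genes. Without cells that hold markers of another class they were 0.173% and 0% in granulosa-like, 15.3% and 16.6% in theca-like and 33.3% in the 3 KO epithelia-like cells left; no WT epithelia-like cell was left. The KO granulosa-like share was 0.653% at Leiden resolution 1.0 and 0.502% without Scrublet doublets, and the KO theca-like share 28.4% with common limits. The granulosa-like share was below the theca-like and epithelia-like shares in each of these settings that gave both. The 0 of 160 WT granulosa-like cells left without mixed cells, like the low depth of Ube2c and Ccnd1, limits what a count can show.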
